A study of Mus musculus with 4 samples.

Results

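The genes described are carriers of 7 solute carrier families in mouse cerebellum: Slc4, Slc6, Slc7, Slc12, Slc22, Slc25 and Slc38. They were chosen by gene name on the array, with 10 genes of the same families left out, which gave 117 names. Of these, 89 had a probe well above background in the mutant or the control channel of all 4 arrays and were tested, among 18025 genes tested in all. All 89 were well above background in both genotypes on all 4 arrays, so none entered through 1 genotype alone. Slc4a1ap and Slc7a6os match by name and are not carriers themselves. Of the 10 genes left out, 9 were tested and none was called.

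Dicer mutants carried mGfap-Cre and Dicer flox/flox, and their control littermates carried mGfap-Cre and Dicer +/flox, so both genotypes had the Cre and at least 1 floxed allele. Dicer is the enzyme that makes mature microRNAs, and the mouse Gfap promoter drives the Cre in astroglia. The mice were of mixed strain background and were taken at postnatal day 30. There were 4 biologically independent littermate pairs, each on its own array with 2 colours, and the mutant was in Cy5 in pairs 1 and 3 and in Cy3 in pairs 2 and 4. Whole cerebellum was measured, so fewer cells of a type and less RNA per cell cannot be told apart, and a change within astroglia is diluted by the other cells.

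Solute carriers move small molecules across membranes. Slc4 carriers move bicarbonate, Slc12 carriers move chloride together with sodium or potassium, and both set the pH and chloride of neurons and glia. Slc6 carriers use the sodium gradient to take up transmitters, amino acids, taurine and creatine, while Slc7 and Slc38 carriers exchange or take up amino acids, and Slc38 carriers serve the glutamine traffic between astroglia and neurons. Slc22 carriers move organic cations, anions and carnitine, and most Slc25 carriers sit in the inner mitochondrial membrane and pass nucleotides, phosphate and metabolites across it.

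Several amino acid carriers are targets of ATF4, the factor that is translated when amino acids run short, and it binds a composite site together with C/EBP factors. Of the 89 genes, 66 had a promoter entry in RefSeq (build GRCm38.p6), with 92 windows from 250 bases before to 50 bases after a start. On both strands, the letters TTGCATCA were in 3 of these windows (3.26%), against 0.895% of all 32851 windows, and the 3 windows belong to Slc7a11 and Slc7a7. The windows of 1 gene can overlap, and both Slc7a7 windows hold the same site. Both promoters are shown because they are the only ones of the members with these letters, in capitals; each is on the minus strand. The Slc7a11 stretch (150 bases, chr3:50443614-50443763) ends at the base before the start, and its sites begin 66 and 47 bases upstream. The Slc7a7 stretch (150 bases, chr14:54417938-54418087) ends 7 bases after the start, which its site spans.
Slc7a11: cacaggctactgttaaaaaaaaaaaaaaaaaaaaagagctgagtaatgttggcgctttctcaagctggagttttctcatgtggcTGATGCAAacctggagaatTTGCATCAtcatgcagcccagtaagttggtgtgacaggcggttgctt
Slc7a7: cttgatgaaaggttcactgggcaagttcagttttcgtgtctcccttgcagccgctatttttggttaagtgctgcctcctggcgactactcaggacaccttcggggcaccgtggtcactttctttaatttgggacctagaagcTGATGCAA
The site of NRF1, a factor of mitochondrial genes, was in 3.26% of the members' windows and 4.6% of all windows, in Slc22a5, Slc25a3 and Slc6a16. The sterol regulatory element (TCACNCCAC) was in 0 of 92 windows and 1.24% of all. No member's window held more than 1 of these motifs, and a match is a description of the window only.

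An array showed 26398 to 28907 probes clearly above background for the mutant and 26291 to 27718 for the control. The number of arrays limits the precision. All values below are log2 ratios of mutant over control, as mean ± SD over the 4 pairs, with adjusted p from limma over all 18025 genes, and called genes are those with an adjusted p under 0.05. Markers of the tissue were present: all 7 granule neuron and all 6 Purkinje neuron markers were tested and none was called, with medians of 0.01 and -0.02. Of 7 astroglial markers, 2 were called higher in mutants (Aldh1l1 and Gfap) and 3 lower (S100b, Aqp4 and Slc1a2). The 8 oligodendrocyte markers all lay below 0, between -0.40 and -0.22, with a median of -0.28. None was called, and 3 had an unadjusted p under 0.05, against 9.39% of all genes.

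No carrier changed past the threshold. Of the 89, 0 were called higher and 0 lower, against a background of 0.588% higher and 0.444% lower, or 1.03% in all, among the genes tested. At an unadjusted p under 0.05 there were 4 (4.49%), against 9.39% of all genes; 1 was higher and 3 were lower, against 4.88% and 4.51% of all genes. The sign was the same in all 4 pairs for 11 members (12.4%), against 15.1% of all genes; 4 were higher and 7 lower, against 7.75% and 7.32% of all genes. The smallest adjusted p was 0.398, for Slc25a5.

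**Figure D1:**
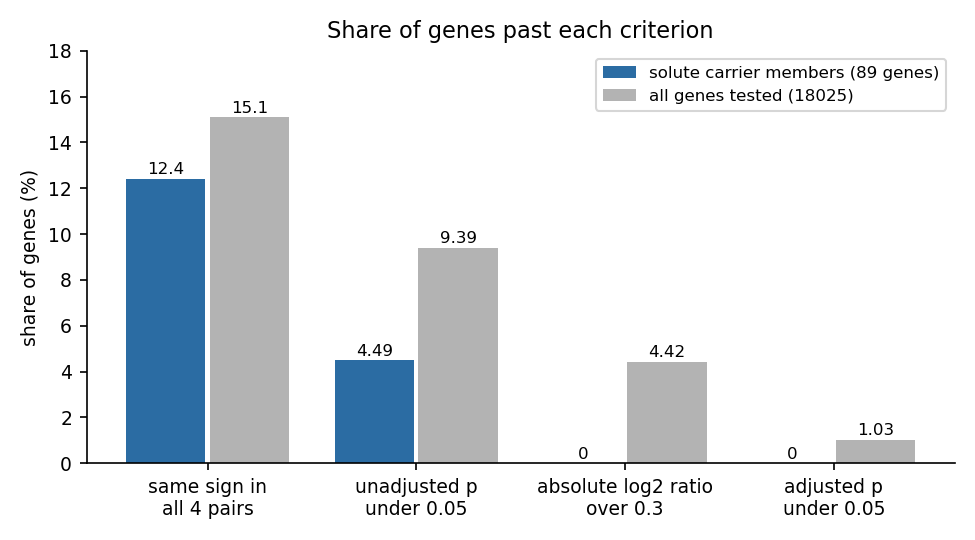
Share of genes in percent (bars, axis from 0) past each of 4 criteria, for the 89 solute carrier members (blue, left) and for all 18025 genes tested (grey, right). The members' bars are 12.4, 4.49, 0 and 0%, beside 15.1, 9.39, 4.42 and 1.03% for all genes.

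The ratios lay close to 0. Their median was -0.02 and they ran between -0.28 (Slc25a1) and 0.27 (Slc7a8), while over all genes the median was 0.00 and the range -1.68 to 3.84. No member passed 0.3 in size, against 4.42% of all genes, although under other processing the largest member reached 0.33 (flags set after the background step), 0.34 (processed signals) or 0.41 (no filter), and 0.57 with a replicate left out. The median size was 0.0634 for members and 0.0613 for all genes, and the median SD over pairs 0.165 and 0.159. There were 39 members above 0 and 50 below.

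The data bound the size of any difference. The 95% interval of a member's ratio had a median half-width of 0.17 and a range of 0.14 to 0.48. All 89 intervals lay within -1 and 1, and 87 lay within -0.5 and 0.5. The lowest bound was -0.54, for Slc25a1, and the highest 0.75, for Slc7a8. A member's missed threshold does not show that its level was equal in both genotypes.

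**Figure D2:**
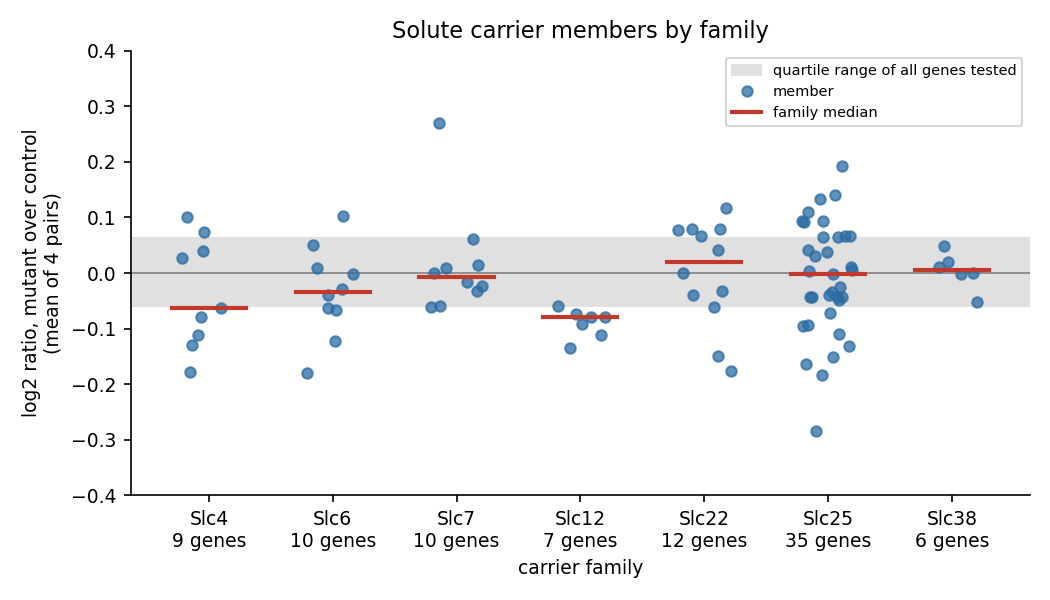
Mean log2 ratio of mutant over control (vertical axis) for each of the 89 members (blue points) by family, with the family median (red line); the grey band spans the lower to the upper quartile of all genes tested, -0.06 to 0.06. The 7 Slc12 members all lie below 0, between -0.13 and -0.06 (1 was above 0 with outlier flags set after the background step or without pair 2), and Slc7a8 stands highest at 0.27.

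Mitochondrial carriers formed the largest family, with 35 of 41 names tested, a median of 0.00 and a range of -0.28 to 0.19. There were 17 above 0 and 18 below, with 0 called. Of the 35, 3 had an unadjusted p under 0.05, against 9.39% of all genes, and nothing particular to the family is read from this count.

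Slc25a5, an ADP/ATP exchanger of the inner membrane (probe at chrX:34338475-34338534, build mm9), had channel levels of 15.69, 15.61, 15.88 and 16.03 (log2 intensity) in mutants of pairs 1 to 4, against 15.38, 15.58, 15.64 and 15.84 in their controls. Mutants were higher in every pair, by a small margin in pair 2, and the ranges of the groups overlapped. The ratios were 0.31, 0.03, 0.24 and 0.18, with a mean of 0.19 ± 0.12 (95% interval 0.04 to 0.35, adjusted p = 0.398).

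Slc25a4, the related ADP/ATP exchanger of heart, muscle and brain, gave 0.35, -0.32, 0.32 and -0.30 and a mean of 0.01 ± 0.37 (interval -0.13 to 0.15). At this probe, the brighter of the kept pair, the sign followed the dye: above 0 in both pairs with the mutant in Cy5 and below 0 in both with it in Cy3. The dye swap cancels this in the mean, and the dye term takes it out of the interval but not out of the SD. The other probe did not split by dye, with 0.10, -0.24 and 0.10 in pairs 1, 2 and 4 and no value in pair 3. At the brightest probe, such a split of signs was seen in 18 of 89 members (20.2%) and in 18.2% of all genes. Whether the probes of these similar genes cross-hybridise was not tested.

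Slc25a1, the citrate exporter that feeds fatty acid and sterol synthesis (probe at chr16:17925603-17925662, build mm9), had levels of 10.44, 10.41, 10.23 and 10.55 in mutants, against 10.66, 10.77, 10.82 and 10.51 in controls. Mutants of pairs 1 to 3 lay below every control of those pairs, and pair 4 showed almost no difference. The ratios were -0.22, -0.36, -0.59 and 0.03, with a mean of -0.28 ± 0.26 (interval -0.54 to -0.03, adjusted p = 0.459). In the same pairs the oligodendrocyte markers had medians of -0.31, -0.20, -0.58 and -0.19, and their part in the Slc25a1 values was not tested. Summed over the 8 oligodendrocyte markers, linear levels were 200706 to 253321 in mutants and 241647 to 294790 in controls.

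Slc25a23, a calcium-regulated carrier that exchanges ATP-Mg for phosphate (probe at chr17:57183867-57183926, build mm9), had levels of 8.26, 8.28, 8.58 and 8.80 in mutants, against 8.49, 8.44, 8.83 and 8.82 in controls. It was lower in all 4 pairs, with pair 4 at almost no difference, and the groups overlapped. The ratios were -0.24, -0.16, -0.25 and -0.01 and the mean -0.16 ± 0.11 (interval -0.32 to -0.01, adjusted p = 0.493). Its relatives Slc25a24 and Slc25a25 were at 0.07 ± 0.09 and -0.05 ± 0.10.

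Slc25a12, the aspartate and glutamate exchanger of the malate-aspartate shuttle in brain, was at 0.04, 0.10, 0.05 and 0.07 at its brightest probe, with a mean of 0.07 ± 0.03 (adjusted p = 0.839). Its other probes disagreed, with means of -0.09 and 0.11, so no direction is given. Its partner isoform Slc25a13 was at -0.04 ± 0.23. Slc25a22, a glutamate carrier, gave 0.06, -0.29, -0.23 and 0.03, which is -0.11 ± 0.18. The other shuttle carrier, the oxoglutarate exchanger Slc25a11, was at 0.09 ± 0.18. None of the 4 shuttle and glutamate carriers had an interval clear of 0.

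Among the other mitochondrial members, Slc25a20, the carnitine and acylcarnitine exchanger of fatty acid oxidation, was at -0.15 ± 0.15, and Slc25a38, a glycine carrier of haem synthesis, at -0.18 ± 0.21. The phosphate carrier Slc25a3 was at -0.04 ± 0.24. The mitoferrins that import iron, Slc25a37 and Slc25a28, were at 0.07 ± 0.09 and -0.07 ± 0.20. Slc25a27 and Slc25a14, uncoupling protein relatives found in brain, were at -0.10 ± 0.11 and 0.03 ± 0.08.

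Among 13 tested genes of 16 listed for other mitochondrial membrane transport, 0 were called. Of the 13, 3 had an unadjusted p under 0.05, a larger share than the 9.39% of all genes. Nothing particular to the list is read from so few genes. Sfxn5, a sideroflexin, was lower in all pairs at -0.31 ± 0.08 (adjusted p = 0.147). Mpc1, a subunit of the pyruvate carrier, was higher in all pairs at 0.21 ± 0.16 (adjusted p = 0.345), and Sfxn1, a serine transporter, was at 0.20 ± 0.14. The outer membrane channels Vdac1, Vdac2 and Vdac3 were at 0.10, 0.11 and 0.09.

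The Slc12 family, with 7 of 9 names tested, was the only one of the 7 families with every mean on 1 side of 0, although 1 of the 7 was above 0 with outlier flags set after the background step or without pair 2. Its median was -0.08 and its range -0.13 to -0.06. Of its 7 members, 4 were lower in mutants in all 4 pairs, a larger share than the 7.32% of all genes. Nothing particular to the family is read from this small count. None was called, and the smallest adjusted p in the family was 0.643. The medians by pair were -0.06, -0.06, -0.16 and -0.03.

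Slc12a5, the potassium-chloride cotransporter KCC2 that keeps chloride low in mature neurons (probe at chr2:164825109-164825168, build mm9), had levels of 16.10, 16.18, 16.19 and 16.17 in mutants, against 16.19, 16.24, 16.26 and 16.24 in controls. Each mutant lay just below its own control. The ratios of -0.09, -0.06, -0.07 and -0.07 had the smallest spread of the named members, -0.07 ± 0.01. The moderated interval was nevertheless -0.22 to 0.07 (adjusted p = 0.809), since limma draws each gene's variance towards that of all genes.

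Slc12a2, the sodium-potassium-chloride cotransporter NKCC1 that loads cells with chloride, gave levels of 10.28, 10.57, 10.28 and 10.90 in mutants, against 10.32, 10.90, 10.31 and 10.94 in controls. Mutants were lower in every pair, by nearly the same small amount except in pair 2. The ratios were -0.04, -0.33, -0.04 and -0.04, with a mean of -0.11 ± 0.14 (adjusted p = 0.762). Neither this chloride loader nor the extruder KCC2 passed the test.

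The potassium-chloride cotransporters Slc12a4 and Slc12a7 were at -0.06 ± 0.31 and -0.09 ± 0.09. The kidney cotransporters Slc12a1 and Slc12a3 were above background on no array. Of the 8 listed regulators that set the activity of these carriers by phosphorylation, all were tested and 0 were called. The kinase Wnk1 was at 0.21 ± 0.16 (adjusted p = 0.496), and the kinases Stk39 and Oxsr1 were at -0.01 ± 0.25 and 0.06 ± 0.23.

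Chloride cotransport runs on the sodium pump, and 10 of 11 listed pump subunits were tested. Of these 10, 1 was called, against 1.03% of all genes. This was Fxyd1, phospholemman, a small regulator of the pump, which was lower in mutants. Whether its call holds under other processing was not tested. Its ratios were -0.64, -0.56, -0.42 and -0.49, with a mean of -0.53 ± 0.09 (adjusted p = 0.039).

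The Slc4 family of bicarbonate carriers had 9 of 10 names tested, Slc4a1ap among them, and 0 were called. Its median was -0.06, or 0.03 with the mean over probes, and its range -0.18 to 0.10. Slc4a3, a chloride and bicarbonate exchanger of excitable cells, gave -0.15, -0.24, -0.42 and 0.11, which is -0.18 ± 0.22 (adjusted p = 0.668). Slc4a2, the widely expressed exchanger of the same kind, gave -0.24, -0.41, -0.13 and 0.34, which is -0.11 ± 0.32. Pair 4 stood opposite to the other 3 pairs in both, but not at the second probe of Slc4a3, which gave -0.35, 0.07, 0.09 and -0.15 (mean -0.09). With the dye term fitted, Slc4a2 was at -0.30 without pair 4 and at 0.08 without pair 2. These are not plain means: the pair left alone in its dye order weighed as much as the other pairs together.

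Slc4a10, a sodium-driven bicarbonate carrier of neurons and choroid plexus, gave 0.12, -0.48, 0.18 and -0.06, which is -0.06 ± 0.30. Slc4a7, an electroneutral sodium bicarbonate cotransporter, gave 0.01, -0.13, -0.24 and -0.16, which is -0.13 ± 0.10 (adjusted p = 0.695). Its probes disagreed: the other 2 were at 0.11 and 0.14, so no direction is given for the gene.

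Slc4a5, a sodium bicarbonate cotransporter of the choroid plexus, gave 0.18, -0.49, 0.45 and 0.27 (0.10 ± 0.41). The 8 tested of 9 listed choroid plexus markers had medians of 0.10, -0.58, 0.39 and 0.55 in the same pairs, and 0.14 over all. Summed over these markers, linear levels were 15199 to 25566 in mutants and 12446 to 24031 in controls. Slc4a1, the anion exchanger of red cells, gave 0.71, -0.08, -0.19 and -0.14 (0.07 ± 0.43). The 2 tested of 4 listed erythroid markers had medians of 0.34, -0.73, 0.24 and -0.06, and summed levels of 30366 to 92413 in mutants and 39614 to 65135 in controls. The part of these cells in either carrier was not tested.

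Carbonic anhydrases supply bicarbonate to these carriers, and 8 of 10 listed genes were tested with 0 called. Car14 was at 0.16 ± 0.23 (adjusted p = 0.495), and Car2, the main form of oligodendrocytes, at -0.02 ± 0.25. Car12 gave 0.23, -0.68, 0.28 and 0.73, the same signs by pair as the medians of the choroid plexus markers.

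**Figure D3:**
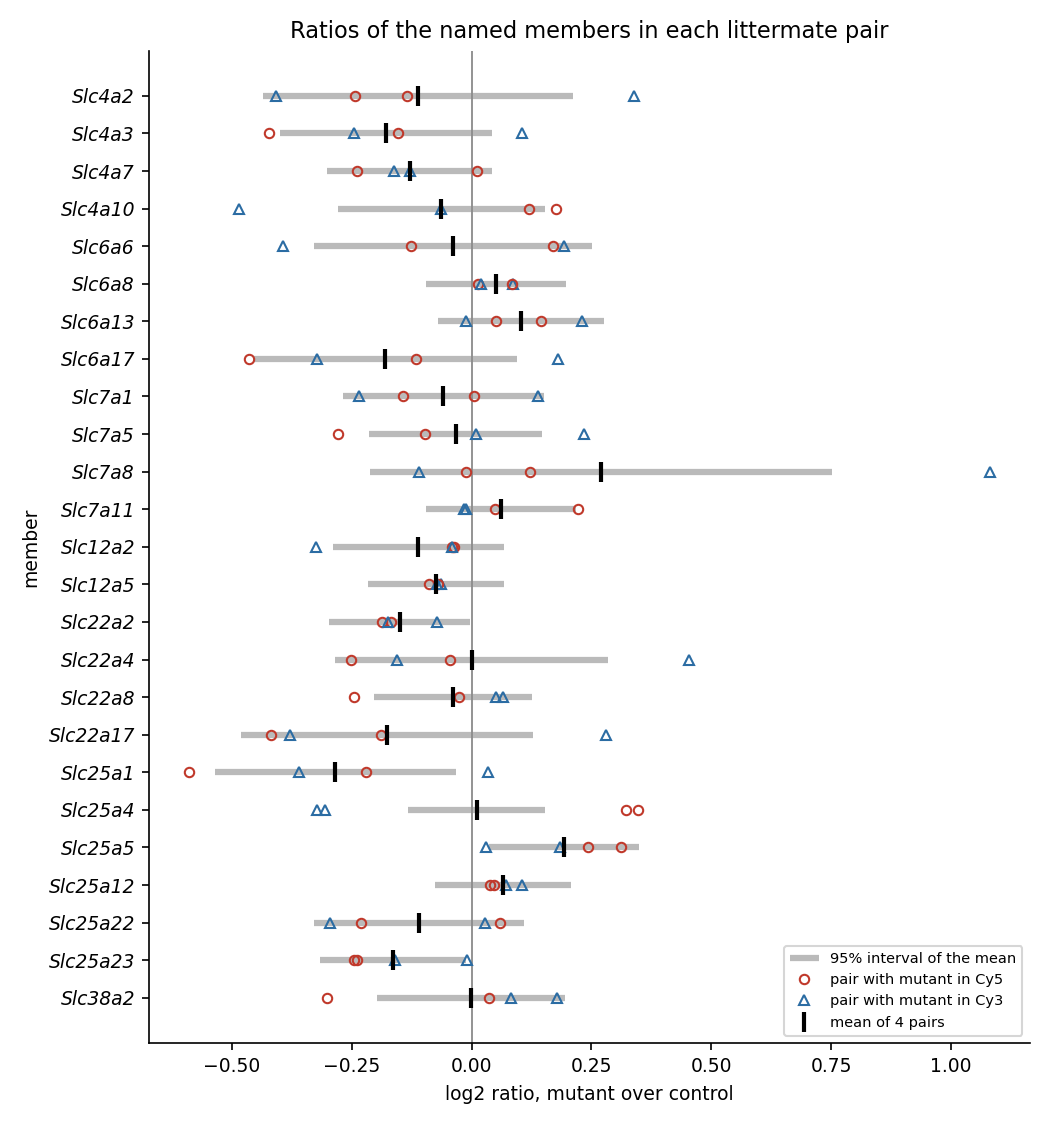
Log2 ratio of mutant over control (horizontal axis) in each littermate pair for 25 named members, with the mean (black bar) and its 95% interval (grey); red circles are pairs with the mutant in Cy5 and blue triangles pairs with it in Cy3. Most intervals cross 0, Slc12a5 has the tightest pairs, Slc25a4 splits by dye between 0.35 and -0.32, and pair 2 of Slc7a8 stands at 1.08.

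Transmitter and osmolyte carriers of the Slc6 family had 10 of 17 names tested, a median of -0.03 and a range of -0.18 to 0.10, with 3 above 0, 7 below and 0 called. The carriers of monoamines were not measurable here: Slc6a4 (serotonin) was above background on no array, Slc6a3 (dopamine) on 1 array in the mutant channel and 0 in the control channel, and Slc6a2 (noradrenaline) on 2 and 0.

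Slc6a13, a GABA and taurine carrier of meninges and vessels, gave 0.05, 0.23, 0.14 and -0.01 (0.10 ± 0.11). The 7 meningeal markers had medians of 0.86, 0.19, 0.15 and 0.20 in those pairs, with 0 called, and summed levels of 20377 to 27523 in mutants and 16664 to 23156 in controls. Their part in Slc6a13 was not tested.

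Slc6a8, the creatine transporter, was above 0 in every pair at 0.01, 0.09, 0.08 and 0.02 (0.05 ± 0.04, adjusted p = 0.882). Slc6a6, the taurine transporter, gave 0.17, -0.39, -0.13 and 0.19 (-0.04 ± 0.28). Slc6a17, a neutral amino acid carrier of synaptic vesicles, gave -0.12, -0.32, -0.46 and 0.18 (-0.18 ± 0.28, adjusted p = 0.741), while its other probes had means of -0.09 and 0.04. Slc6a7, Slc6a12, Slc6a15, Slc6a16 and Slc6a20a lay between -0.07 and 0.01.

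The Slc7 family of amino acid carriers had 10 of 15 names tested, Slc7a6os among them, with a median of -0.01. There were 5 above and 5 below 0, with 0 called. All lay between -0.06 and 0.06 except Slc7a8. This is LAT2, a neutral amino acid exchanger that works with the heavy chain Slc3a2 (1 probe, chr14:55341137-55341196, build mm9). Its levels were 10.57, 11.50, 11.60 and 11.42 in mutants, against 10.58, 10.42, 11.48 and 11.52 in controls. The 8 samples fell into a low range of 10.42 to 10.58, with both animals of pair 1 and the control of pair 2, and a high range of 11.42 to 11.60, with the other 5. Both genotypes were in both ranges. The ratios were -0.01, 1.08, 0.12 and -0.11, so that the mean of 0.27 ± 0.55 (interval -0.21 to 0.75, adjusted p = 0.793) rests on pair 2. Without pair 2 it was -0.03 (adjusted p = 0.960), and without pair 4 it was 0.57 (adjusted p = 0.0259). In that last fit pair 2 was the only pair with the mutant in Cy3, so the dye term left its value without a residual. Both values are fitted estimates and not plain means, since the pair left alone in its dye order weighed as much as the other pairs together.

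**Figure D4:**
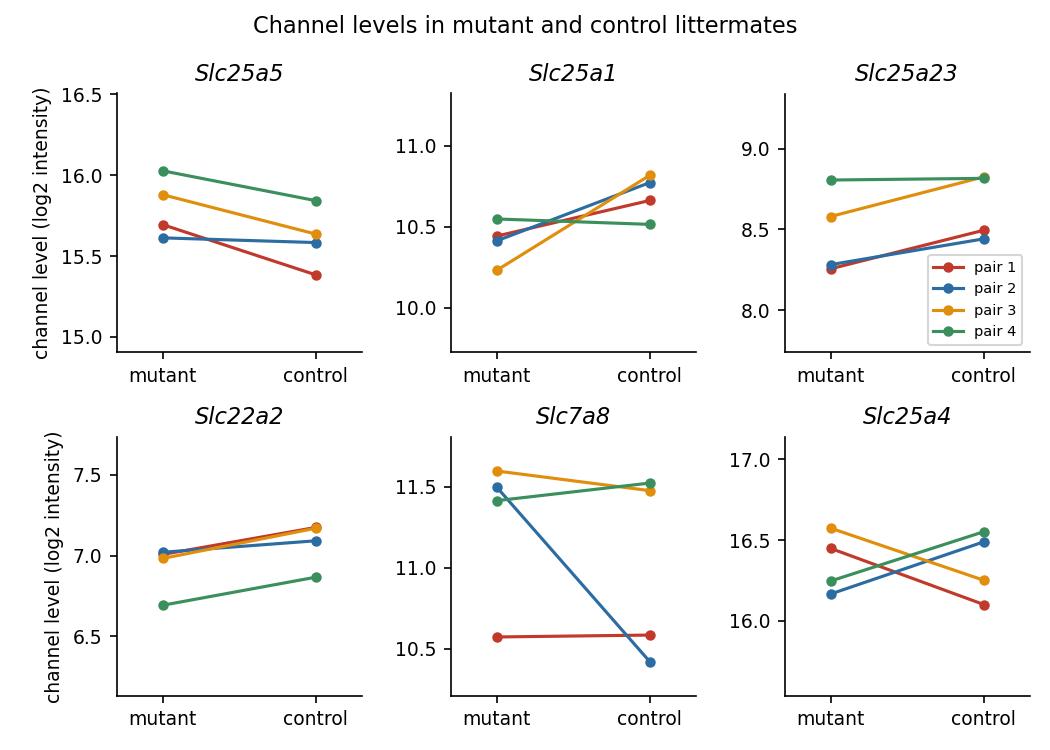
Channel level (log2 intensity, each panel spanning 1.6 units) of mutant (left) and control (right) of each littermate pair, joined by a line, for the 4 members with an unadjusted p under 0.05 and for Slc7a8 and Slc25a4. Pair 2 differs most in Slc7a8, at 11.50 in the mutant and 10.42 in the control, and the lines of Slc25a4 cross by dye orientation.

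The large neutral amino acid exchanger Slc7a5, LAT1, gave -0.10, 0.24, -0.28 and 0.01 (-0.03 ± 0.22). Slc7a1, the cationic amino acid transporter of most cells, gave 0.01, 0.14, -0.14 and -0.24 (-0.06 ± 0.17). The members with the ATF4 letters in their promoters were Slc7a11, the cystine and glutamate exchanger, at 0.22, -0.02, 0.05 and -0.01 (0.06 ± 0.11, adjusted p = 0.863), and Slc7a7, at -0.06, 0.20, -0.19 and -0.18 (-0.06 ± 0.18). Neither was called, and their means had opposite signs.

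Of 4 listed partner proteins of these carriers, 3 were tested and 0 called. Slc3a2, the heavy chain of LAT1, LAT2 and Slc7a11, was at 0.12 ± 0.13 and Slc3a1 at -0.01 ± 0.20. All 14 listed genes of the amino acid response were tested and 0 were called, with a median of 0.01. Atf5 was lower in all pairs at -0.32 ± 0.24 (adjusted p = 0.196), Psat1, of serine synthesis, at -0.15 ± 0.06, while Atf4 was at -0.08 ± 0.34 and Asns at 0.06 ± 0.08.

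The Slc38 family had 6 of 7 names tested, all between -0.05 and 0.05, with a median of 0.01 and the narrowest range of the 7 families apart from Slc12. Slc38a2, a sodium-coupled neutral amino acid carrier, gave 0.04, 0.08, -0.30 and 0.18 (-0.00 ± 0.21). Slc38a5, a glutamine carrier, was at 0.02 ± 0.24 and Slc38a9, a lysosomal arginine sensor, at -0.00 ± 0.07. Slc38a7 was lower in all pairs, at -0.05 ± 0.03.

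Organic ion carriers of the Slc22 family had 12 of 18 names tested, a median of 0.02, and 7 above and 5 below 0, with 0 called. Slc22a2, the organic cation carrier OCT2 (probe at chr17:12821245-12821304, build mm9), had levels of 7.01, 7.02, 6.98 and 6.69 in mutants, against 7.17, 7.09, 7.17 and 6.87 in controls. Mutants were lower in every pair, and the group ranges overlapped through the control of pair 4. The ratios were -0.17, -0.07, -0.19 and -0.17, with a mean of -0.15 ± 0.05 (interval -0.30 to -0.00, adjusted p = 0.523). With the processed signals of the scanner software, or the deposited value table made from them, the mean was -0.34 (adjusted p = 0.213).

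Slc22a6, the organic anion carrier OAT1, was higher in mutants in all pairs at 0.12, 0.15, 0.13 and 0.07 (0.12 ± 0.04, adjusted p = 0.669), but its other probe was at -0.02. Slc22a8, the related OAT3 of vessels and choroid plexus, gave -0.03, 0.07, -0.24 and 0.05 (-0.04 ± 0.14). Slc22a17, a brain carrier-like protein that binds lipocalin, gave -0.19, -0.38, -0.42 and 0.28 (-0.18 ± 0.32, adjusted p = 0.783). With the dye term fitted, Slc22a17 was at -0.01 without pair 2 and at -0.34 without pair 4. These are not plain means either, since the pair left alone in its dye order weighed as much as the other pairs together. The carnitine and ergothioneine carriers Slc22a4 and Slc22a5 were at 0.00 ± 0.31 and 0.07 ± 0.19. In Slc22a4 pair 2, at 0.45, stood opposite to pairs 1, 3 and 4, at -0.25, -0.05 and -0.16.

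In 16 of the 89 members (18%) pairs 1 to 3 were below 0 and pair 4 above it, as was so in 10.1% of all genes with a value in every pair. This pattern was picked after the values were seen. Slc25a1, Slc4a2, Slc4a3, Slc6a17 and Slc22a17 were among these 16. Over all members the pairs had medians of -0.04, 0.00, -0.04 and -0.01, with 37, 45, 38 and 42 of 89 above 0. The SD across members within a pair was 0.165, 0.235, 0.218 and 0.175, against 0.241, 0.271, 0.252 and 0.256 across all genes.

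Probes of the same gene gave a further view of the spread. They lie at different positions, and whether they read different transcripts of a gene was not tested. Of the 89 genes, 36 had several kept probes, with 49 further probes, of which 34 had the sign of the brightest probe. The further probes lay between -0.16 and 0.32, and none of the 138 kept probes was called when every probe was tested by itself. The largest gap was 0.34 in Slc7a14, whose second probe gave 0.15, 0.55, 0.50 and 0.08 (mean 0.32), against -0.02 at the brightest probe.

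The 28 names not tested comprised 14 above background on no array and 14 above it on some. Slc7a2, a cationic amino acid transporter, Slc7a15 and Slc25a41 reached 3 arrays in both genotypes. No ratio is given for these genes.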

How the data were processed

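Cerebellum RNA (500 ng per channel) of 4 littermate pairs was hybridised to 4 two-colour Agilent arrays on 1 slide. The deposited files hold linear spot intensities and local backgrounds from Agilent Feature Extraction 10.5.1.1, with probe coordinates of build mm9, per the file headers. They also hold log10 ratios of Cy5 over Cy3, background-subtracted and dye-normalized by that software, per the file headers. The value table of the series, as deposited, holds these log10 ratios, turned to mutant over control; the largest difference was 4.84e-06.

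The ratios here were computed from the deposited intensities with limma 3.58.1 (R 4.3.3, data.table (version 1.17.8), jsonlite 2.0.0). Background was corrected by normexp (offset 50, without spots carrying an outlier flag), ratios were loess-normalized within arrays, spots of a probe were averaged and the brightest kept probe stood for a gene. A probe was kept if well above background in 1 genotype on all 4 arrays, with values on at least 3 arrays. There were 143 to 248 flagged spots per array and no saturated member spot. Log2 ratios were fitted with a dye and a genotype term (2 residual and 3.37 prior degrees of freedom), two-sided, with Benjamini-Hochberg adjustment over 18025 genes. Each array is a pair, so the fit is paired, and the pairing comes from the study's design text. Channel levels are after normalization between arrays (Aquantile). The script was checked on simulated data. With 4 pairs, an exact sign-flip test of 1 gene cannot go below 0.125 and was not used.

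Symbols came from the accession for 118 of the 138 kept member probes, otherwise from the file. Named members were those with an unadjusted p under 0.05, the brightest of each family and 22 chosen by role (27 in all); other genes were named after their values were seen, for their role or as exceptions. Some genes of the members and lists are not reported here. The members and lists were chosen with earlier results of these data known. Alternatives covered background, normalization, filter, probe choice, dye term, variance model, pairing and each replicate left out. With a replicate left out the dye term stayed in the fit. The pair left alone in its dye order then weighed as much as the other pairs together, so these values are not plain means. Calls of single list and marker genes were not followed under the alternatives.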

Additional observations from a re-analysis of the deposited data

Results flagged for a closer look

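Among the 27 named members, 1 had a pair far from the other 3 by Dixon's criterion at the 95% level. This was Slc12a2, the cotransporter NKCC1, with a ratio of -0.33 in pair 2, where the other pairs lay at -0.04. Chance alone is set to give such a pair in about 1 of 20 genes.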

How the results depend on the processing

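Under all 15 alternatives 0 members were called lower and, except without replicate 4, 0 were called higher; leaving out replicates gave 0 to 1, the 1 being Slc7a8 (0.57, adjusted p = 0.0259). The 4 members with an unadjusted p under 0.05 became 0 with outlier flags set after normexp, 1 with median centring, 7 (of 117) with no filter on dim probes, 2 with no dye term, 1 with no replicate block and 1 to 13 with a replicate left out (13 without replicate 4, of 90 tested, 14.4% against 17.4% of all genes). The median of -0.0229 became 0.00613 with flags after normexp and -0.00180 with no filter. Every family median except that of Slc12 changed sign under at least 1 alternative. That of Slc4 ran between -0.103 and 0.0454, and that of Slc22 between -0.00693 and 0.0754. The 7 Slc12 members stayed below 0 except 1 with flags after normexp and 1 without replicate 2; with no filter 1 of 9 was above. Over all genes, 106 higher and 80 lower became 50 and 32 with flags after normexp, 88 and 53 with processed signals, and, leaving out replicates 1 to 4 in turn, 44 and 13, then 140 and 127, then 60 and 31, then 215 and 121.

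Of the 27 named members, 16 kept their sign under all 15 alternatives and 11 did not. With flags after normexp, Slc25a4 was at -0.0314, Slc38a2 at 0.00613 and Slc7a5 at 0.0380. Median centring put Slc22a4 at -0.000963. The mean over probes put Slc4a7 at 0.0399 and Slc38a2 at 0.0268. Values with a replicate left out are fitted with the dye term and are not plain means of the remaining pairs. With a replicate left out, Slc22a4 ranged between -0.152 and 0.152, Slc7a8 between -0.0270 and 0.568, Slc38a2 between -0.0854 and 0.0839, Slc4a2 between -0.298 and 0.0753, Slc4a10 between -0.168 and 0.0415, Slc6a6 between -0.186 and 0.108, Slc7a1 between -0.152 and 0.0348, Slc7a5 between -0.0893 and 0.0239 and Slc22a8 between -0.0933 and 0.0159. Some of the 16 moved by over 1.5 times: Slc22a2 to -0.345 with processed signals, and, with a replicate left out, Slc25a1 to -0.185, Slc4a3 to -0.0909, Slc6a13 to 0.0425 or 0.164, Slc6a17 to -0.0546 or -0.307, Slc12a2 to -0.0398 or -0.182, Slc22a17 to -0.0115 or -0.341 and Slc25a22 to -0.0291 or -0.190. The cause was not tested.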
